A study of Neurospora crassa with 54 samples.

Results

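The genes that flank set-7 in the filamentous fungus Neurospora crassa were followed by RNA-seq in 4 strains. They were chosen by position, with earlier results of these data known. The rule took every annotated gene on chromosome I whose midpoint lies within 20 kb of the midpoint of set-7, set-7 itself left out. This gave 12 of the 10398 genes in the count table, of which 10 are protein-coding and 2 are tRNA genes. The strains were a wild type (WT), ∆hH2Az, ∆set-7 and the double deletion ∆hH2Az;∆set-7, with 3 libraries each. All 12 libraries came from mycelium kept under constant light at 30 °C for 12 h in VMM medium containing 2% glucose, and were made as stranded mRNA libraries. The sample names of a strain's 3 libraries share 1 strain code, so each genotype is represented by 1 isolate as far as the labels tell, and p-values measure the spread between these libraries, which may be technical.

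SET-7 is the catalytic subunit of Polycomb repressive complex 2, which methylates lysine 27 of histone H3. In Neurospora this mark covers large silent domains, many of them near chromosome ends, and genes in such domains can become active when set-7 is lost. H2A.Z, the product of hH2Az, is a histone variant found around the start sites of genes, and the study asked how it relates to that methylation. A gene deletion also changes the DNA next to the neighbouring genes. The sources used here do not say how much of set-7 was deleted or with what marker. In every comparison of a strain lacking set-7 with one keeping it, loss of the SET-7 protein and the altered DNA at the locus therefore cannot be told apart. The 42 chromatin samples of the series were not analysed here.

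The neighbours are described from left to right in the coordinates of the NC12 assembly. Left of set-7 lie NCU15004, a tRNA gene (393034 to 393131, plus strand), NCU07501 (393677 to 395053, minus strand), NCU07500 (397225 to 398634, plus strand) and NCU07499 (400255 to 401476, plus strand). Next come mus-40 (NCU07498, 402099 to 406298, minus strand), whose symbol stands for a mutagen-sensitive gene, and NCU07497 (406510 to 408008, plus strand). set-7 itself (NCU07496) runs on the minus strand from 415263 to 408524, so NCU07497 faces its 3′ end across 515 bases. NCU07497 also starts 211 bases from the start of mus-40, in the opposite direction. On the other side NCU07495 (417352 to 419464, plus strand) starts 2088 bases upstream of the start of set-7 and is transcribed away from it. Further right lie NCU15005, a tRNA gene (420030 to 420109, minus strand), NCU07494 (420177 to 421612, plus strand), NCU07493 (421557 to 423435, minus strand), NCU07492 (423885 to 427947, minus strand) and NCU07491 (429105 to 431229, minus strand). NCU07494 and NCU07493 overlap at their 3′ ends by 56 bases, and reads over the overlap were counted for neither. The annotation used here gives no name or product for the neighbours other than mus-40. The nearest genes outside the window were NCU07502, at -21.21 kb between midpoints, and pzl-1 (NCU07489), at 27.71 kb.

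Total counts per library ranged from 13581416 to 19720473. Levels are given as CPM, counts scaled by TMM-adjusted library size, and a gene is called where its edgeR quasi-likelihood adjusted p is under 0.05. Of the 12 neighbours, 8 passed the filter on low counts and were tested with 8372 genes in all. The other 4 had almost no reads: over all 12 libraries together NCU15004 had 12, NCU07501 had 15, NCU07500 had 10 and NCU15005 had 0. A count of 0 allows a level of up to 0.0149 CPM for NCU15005, from counting error only. The library preparation selects poly(A) RNA, and mature tRNAs are not polyadenylated. In each strain replicate 3, which carries another tag in the sample names, stood apart from replicates 1 and 2, which carry the tag 920. The correlation of log2 CPM across genes was 0.990 to 0.995 between replicates 1 and 2 and 0.934 to 0.977 between these and replicate 3. The sources used here do not say what the tag stands for, so results are also given within each tag.

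set-7 had 8.35, 9.62 and 7.85 CPM in the WT libraries and 8.32, 8.88 and 12.5 CPM in ∆hH2Az. It had 3.92, 3.48 and 2.71 CPM in ∆set-7 and 5.15, 3.17 and 3.13 CPM in the double deletion. Every library labelled as lacking set-7 lay below every library keeping it, but reads remained, 162 over the ∆set-7 libraries and 190 over the double deletion. Its log2 fold change was -1.35 (SE 0.280, edgeR adjusted p = 0.0457) in ∆set-7 against WT and -1.37 (SE 0.277, edgeR adjusted p = 0.0319) in the double deletion against ∆hH2Az. The first call was lost with the replicate number as a block (edgeR adjusted p = 0.0943) or the tag as a block (0.0533), with limma-voom (0.0519), with upper-quartile scaling (0.0608) and with a mean of at least 5 CPM required (0.0626). It was also lost on leaving out any library of WT or ∆set-7, replicate 1 or 2 of ∆hH2Az, or replicate 2 of the double deletion, with edgeR adjusted p up to 0.223. The second was lost on leaving out replicate 1 or 2 of WT, ∆set-7 or ∆hH2Az, or replicate 2 of the double deletion, with edgeR adjusted p up to 0.152, in a fit of only the strains compared (0.253) and with the replicate block (0.0640). Over the 6 libraries lacking set-7 against the 6 keeping it, the change was -1.36 (edgeR adjusted p = 0.00222).

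**Figure D1:**
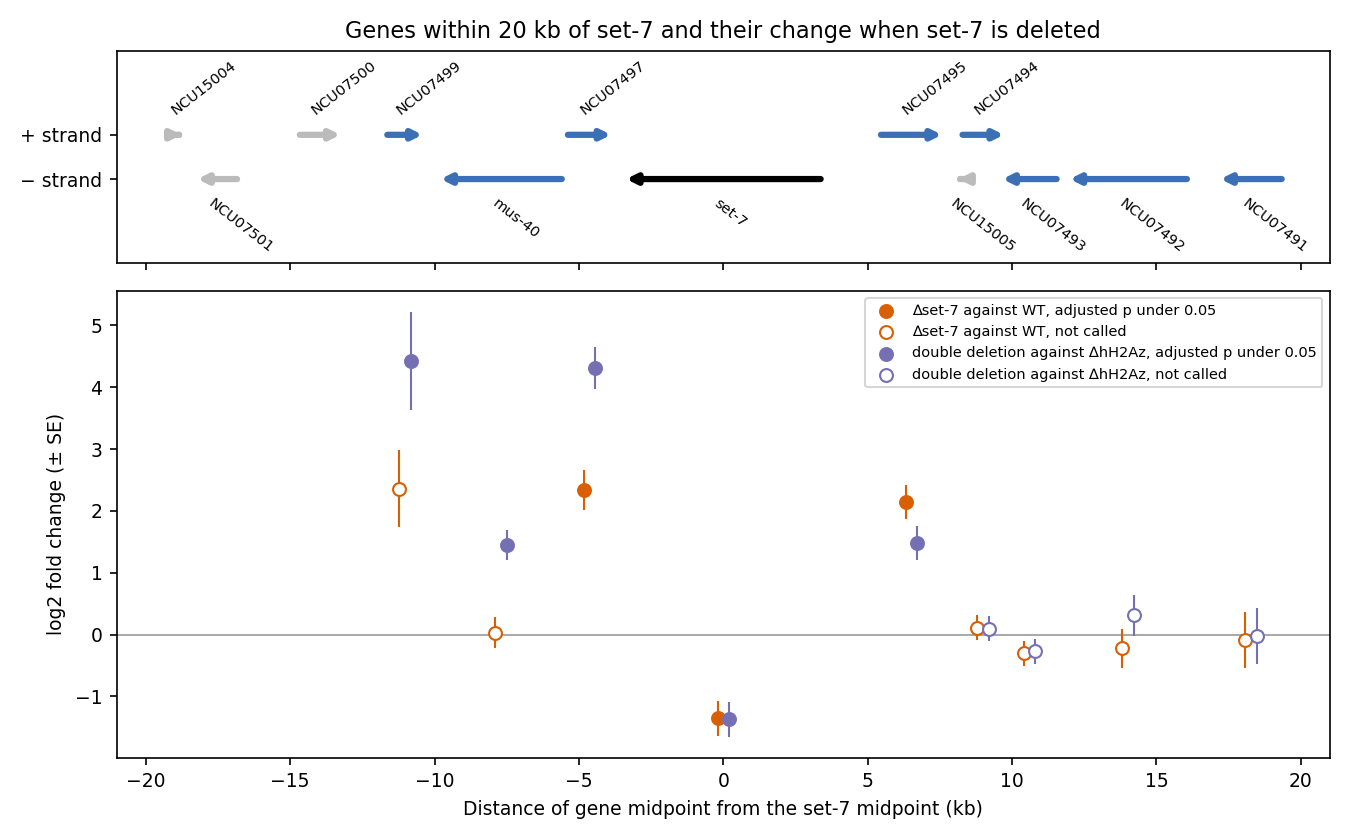
The upper panel maps the neighbours by distance of position from the set-7 midpoint in kb and by strand, with set-7 in black, tested neighbours in blue and untested ones in grey; the lower panel gives the log2 fold change (± SE) of each tested gene when set-7 is deleted. In both backgrounds NCU07497 and NCU07495, the nearest genes on either side, lie above 1 with filled symbols (called), while the 4 genes furthest to the right lie near 0 with open symbols.

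In ∆set-7 against WT, 2 of the 8 tested neighbours were higher, NCU07497 and NCU07495, and none was lower, where 1.02% of all genes tested were called higher and 0.0119% lower. In the double deletion against ∆hH2Az, 4 of 8 were higher, namely NCU07499, mus-40, NCU07497 and NCU07495, and none was lower, where 1.12% of all genes were called higher and 0.323% lower. These 2 comparisons share no library, but they come from 1 fit with a shared estimate of the spread per gene. With the 6 libraries lacking set-7 set against the 6 keeping it, 3 of 8 were higher (NCU07499, NCU07497 and NCU07495), against 1.82% of all genes, and none was lower, against 0.191%. One of these genes, NCU07499, was tested only because its reads in strains lacking set-7 took it past the filter on low counts, so it had to differ. Without it the counts are 2, 3 and 2 of the 7 other tested neighbours. The CPM of the strains did not overlap, with the higher values where set-7 was lacking, for 3, 4 and 3 of the 8 tested neighbours in these comparisons, NCU07499 among them each time. The same held for 8.19%, 5.70% and 1.04% of all genes tested. NCU07497 and NCU07495 are the nearest genes on the left and right of set-7, and both were called in all 3 comparisons. The third comparison is the mean of the first 2, so it is no separate result. The median log2 fold change of the 8 tested neighbours was 0.07 in ∆set-7 against WT and 0.88 in the double deletion against ∆hH2Az, beside -0.02 and -0.0060 for all genes tested.

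NCU07497, next to the 3′ end of set-7, had the widest range of strain means among the tested neighbours on the log2(CPM + 0.5) scale, 3.71. It had 3.46, 3.85 and 1.96 CPM in WT, 0.717, 0.766 and 1.25 CPM in ∆hH2Az, 13.2, 14.7 and 18.6 CPM in ∆set-7, and 20.5, 21.3 and 12.6 CPM in the double deletion. The libraries lacking set-7 all lay above those keeping it, ∆hH2Az lay below WT without overlap, and ∆set-7 and the double deletion overlapped. NCU07497 rose in ∆set-7 against WT (log2 fold change 2.33, SE 0.322, edgeR adjusted p = 0.00376), from 3.09 ± 0.995 to 15.5 ± 2.83 CPM (SD, n = 3). It rose in the double deletion against ∆hH2Az by 4.31 (SE 0.340, edgeR adjusted p = 5.51e-05), from 0.910 ± 0.293 to 18.1 ± 4.79 CPM (SD, n = 3). Both rises were present within each tag. On the log2(CPM + 0.5) scale the differences in the libraries tagged 920 were 1.80 and 4.11, and those in the libraries with the other tag were 2.96 and 2.91.

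NCU07495, on the upstream side of set-7, had 93.4, 81.8 and 51.7 CPM in WT and 34.5, 39.9 and 66.3 CPM in ∆hH2Az. It had 397, 294 and 315 CPM in ∆set-7 and 133, 110.3 and 150.1 CPM in the double deletion. Here the order of strains was graded: ∆set-7 lay highest, the double deletion lay between it and the strains keeping set-7 with no overlap on either side, and WT and ∆hH2Az overlapped. NCU07495 rose in ∆set-7 against WT (log2 fold change 2.15, SE 0.280, edgeR adjusted p = 0.00290), from 75.6 ± 21.5 to 335 ± 54.3 CPM (SD, n = 3). It rose in the double deletion against ∆hH2Az by 1.48 (SE 0.280, edgeR adjusted p = 0.0220), from 46.9 ± 17.0 to 131 ± 19.996 CPM (SD, n = 3). The log2(CPM + 0.5) differences were 1.96 and 1.69 in the libraries tagged 920 and 2.59 and 1.17 in those with the other tag. The second call was lost without ∆hH2Az replicate 1 (log2 fold change 1.301, edgeR adjusted p = 0.123), without ∆hH2Az replicate 2 (1.38, edgeR adjusted p = 0.131), without replicate 1 of the double deletion (1.47, edgeR adjusted p = 0.0742), and in a fit of only the strains compared (1.51, edgeR adjusted p = 0.145).

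Per kilobase of exon (RPKM), the deletion changed the order of the neighbours. In WT the highest was NCU07493 at 65.3 ± 6.46 RPKM, followed by NCU07495 at 38.4 ± 10.9, NCU07494 at 31.1 ± 3.28 and NCU07491 at 26.1 ± 20.8 RPKM (SD, n = 3), of which the last 3 overlapped. The other tested neighbours were lower, with NCU07492 at 6.50 ± 3.11, mus-40 at 4.78 ± 0.369, NCU07497 at 2.22 ± 0.716 and NCU07499 at 0.161 ± 0.0657 RPKM (SD, n = 3), and NCU07492 and mus-40 overlapped. set-7 itself stood at 1.598 ± 0.169 RPKM in WT (SD, n = 3), within the range of NCU07497. In ∆set-7, NCU07495 became the highest neighbour at 169.9 ± 27.5 RPKM and NCU07497 reached 11.1 ± 2.04 RPKM (SD, n = 3). NCU07499 stayed lowest of the tested neighbours in every strain.

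**Figure D2:**
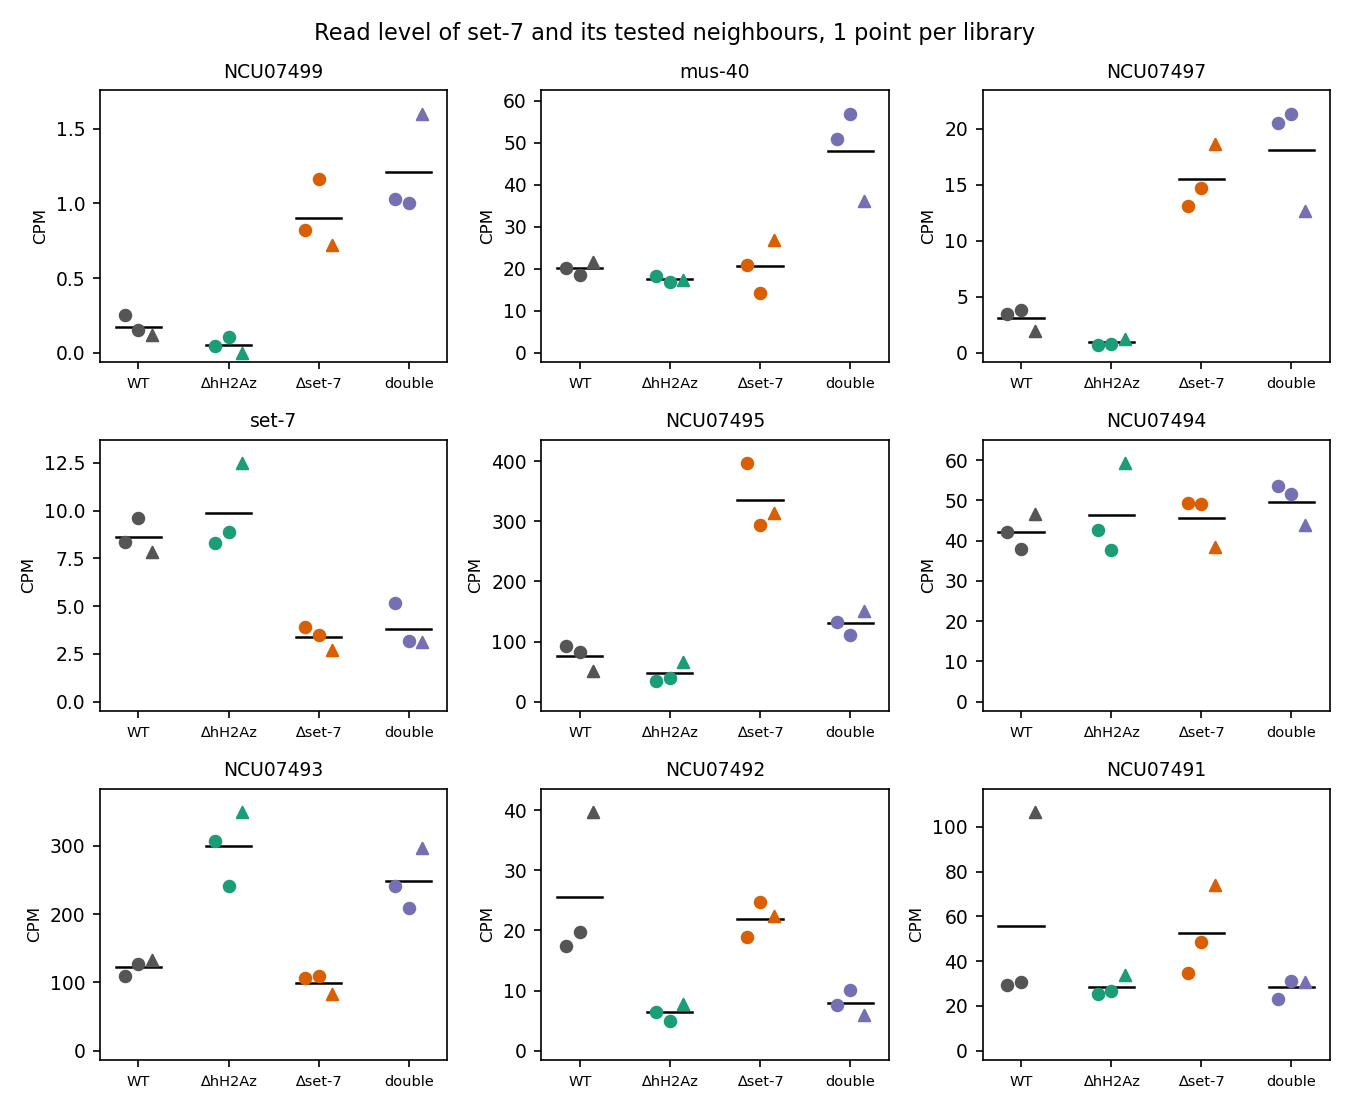
Each panel gives the level of set-7 or a tested neighbour in CPM, with 1 point per library, a bar for the strain mean, circles for libraries tagged 920 and triangles for those with the other tag. NCU07497 lies between 12.6 and 21.3 CPM in the libraries lacking set-7 and at or under 3.85 CPM in those keeping it, and NCU07491 in WT is set by 1 library at 106 CPM.

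mus-40 had 20.1, 18.6 and 21.7 CPM in WT, 18.3, 16.7 and 17.4 CPM in ∆hH2Az and 20.8, 14.1 and 26.7 CPM in ∆set-7. The double deletion had 50.9, 56.7 and 36.0 CPM. The double deletion thus lay above the other 3 strains with no overlap, and ∆set-7 spanned both WT and ∆hH2Az. mus-40 rose in the double deletion against ∆hH2Az (log2 fold change 1.45, SE 0.243, edgeR adjusted p = 0.0101) and against ∆set-7 by 1.22 (SE 0.243, edgeR adjusted p = 0.00353). In ∆set-7 against WT its log2 fold change was 0.03 (SE 0.245, 95% Wald interval -0.45 to 0.51, edgeR adjusted p = 0.992). The difference between the effects of set-7 loss with and without hH2Az, tested as the interaction, was 1.42 (SE 0.345, edgeR adjusted p = 0.261). It did not pass the threshold, where 0.179% of all genes did. Without replicate 3 of the double deletion it passed (edgeR adjusted p = 0.0420), where 1.25% of all genes did. It also passed with DESeq2 (adjusted p = 0.0200) and in the libraries tagged 920 alone (edgeR adjusted p = 0.000620), where 25.8% of all genes were called. By tag the interaction of mus-40 was 1.76 and, in the other tag, 0.74 on the log2(CPM + 0.5) scale. The log2(CPM + 0.5) differences of the double deletion from ∆hH2Az were 1.59 in the libraries tagged 920 and 1.03 in those with the other tag. This call was lost without ∆hH2Az replicate 1 (edgeR adjusted p = 0.0547), without ∆hH2Az replicate 2 (0.0657) or without replicate 2 of the double deletion (0.0531). With both backgrounds joined the change was 0.74 (SE 0.172, edgeR adjusted p = 0.0519). It passed without ∆set-7 replicate 2 (0.0195) or without replicate 3 of the double deletion (0.0214). It passed as well with DESeq2 size factors (0.0452), with upper-quartile scaling (0.0404) and with the DESeq2 test (0.00284). In the libraries tagged 920 alone it also passed (edgeR adjusted p = 0.00205), where 21.7% of all genes were called.

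NCU07499, the leftmost tested neighbour, was close to the limit of counting in the strains that keep set-7. It had 0.253, 0.154 and 0.115 CPM in WT and 0.0478, 0.102 and 0 CPM in ∆hH2Az, from 7 and 3 reads in all. It had 0.822, 1.16 and 0.719 CPM in ∆set-7 and 1.03, 1.00 and 1.598 CPM in the double deletion, from 43 and 59 reads. Libraries lacking set-7 all lay above those keeping it. The gene passed the filter on low counts through the libraries lacking set-7 alone, all 6 of them and none of the rest, so its place among the tested genes already rests on that difference. The ratio of pooled reads, scaled by library size, was 24.2 for the double deletion against ∆hH2Az (95% exact binomial interval 7.90 to 121) and 5.34 for ∆set-7 against WT (2.38 to 14.1). The intervals cover counting error only. The fitted log2 fold change was 4.42 in the double deletion against ∆hH2Az (SE 0.797, edgeR adjusted p = 0.00281). This call was lost in a fit of only the strains compared (edgeR adjusted p = 0.0732). In ∆set-7 against WT it was 2.36 (SE 0.618, edgeR adjusted p = 0.110), short of the threshold; it passed in the libraries tagged 920 alone (edgeR adjusted p = 0.0430), where 10.7% of all genes were called, and without ∆hH2Az replicate 3 (edgeR adjusted p = 0.0474).

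The 4 tested genes beyond NCU07495 on the right did not pass the test in any comparison of set-7 loss over all libraries. In the libraries tagged 920 alone, NCU07492 passed in the double deletion against ∆hH2Az (0.64, edgeR adjusted p = 0.0442), where 29.5% of all genes were called. NCU07494 passed there with both backgrounds joined (0.35, edgeR adjusted p = 0.0270), where 21.7% of all genes were called. Their log2 fold changes were 0.11 for NCU07494, -0.30 for NCU07493, -0.22 for NCU07492 and -0.09 for NCU07491 in ∆set-7 against WT, with edgeR adjusted p from 0.858 to 0.992. In the double deletion against ∆hH2Az they were 0.10, -0.27, 0.31 and -0.02 in the same order, with edgeR adjusted p from 0.787 to 0.998. For NCU07494, 95% Wald intervals were -0.29 to 0.52 and -0.31 to 0.50, and for NCU07491, the least precisely measured, they were -0.96 to 0.79 and -0.90 to 0.87. At unadjusted p under 0.05 edgeR gave 3 of the 8 neighbours in the first comparison and 4 in the second. These are the genes already named, with NCU07499 among them both times. Ranked by p over the 8372 genes tested, the last of them stood at 115 (NCU07499) in the first and 87 (NCU07495) in the second. The share of all genes at unadjusted p was not counted.

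Genes 20 to 100 kb from set-7 were examined next. Of 37 such genes 28 were tested, and edgeR called 0 of them in any of the 3 comparisons of set-7 loss. It called 1.03%, 1.45% and 2.01% of all genes there, so 0 of 28 is near those shares. At unadjusted p under 0.05 edgeR gave 1 in ∆set-7 against WT, 3 in the double deletion against ∆hH2Az and 1 with both backgrounds joined. The share of all genes at unadjusted p was not counted, so these counts cannot be set against it. DESeq2 called 0, 1 and 0, where it called 1.9%, 3.49% and 3.33% of all genes. limma-voom called 0 in each, where it called 0.932%, 1.53% and 1.96%. The median log2 fold change of these 28 genes was 0.19 in ∆set-7 against WT and 0.13 in the double deletion against ∆hH2Az. NCU07502, just outside the window on the left, had 9.56 ± 1.53 CPM in WT and 15.7 ± 0.742 CPM in ∆set-7 (SD, n = 3), and its log2 fold change was 0.72 (edgeR adjusted p = 0.340). Its change in the double deletion against ∆hH2Az was -0.12 (edgeR adjusted p = 0.958). pzl-1, just outside on the right and named as a protein phosphatase Z-like gene, had log2 fold changes of 0.07 and 0.20 (edgeR adjusted p = 0.992 and 0.945).

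**Figure D3:**
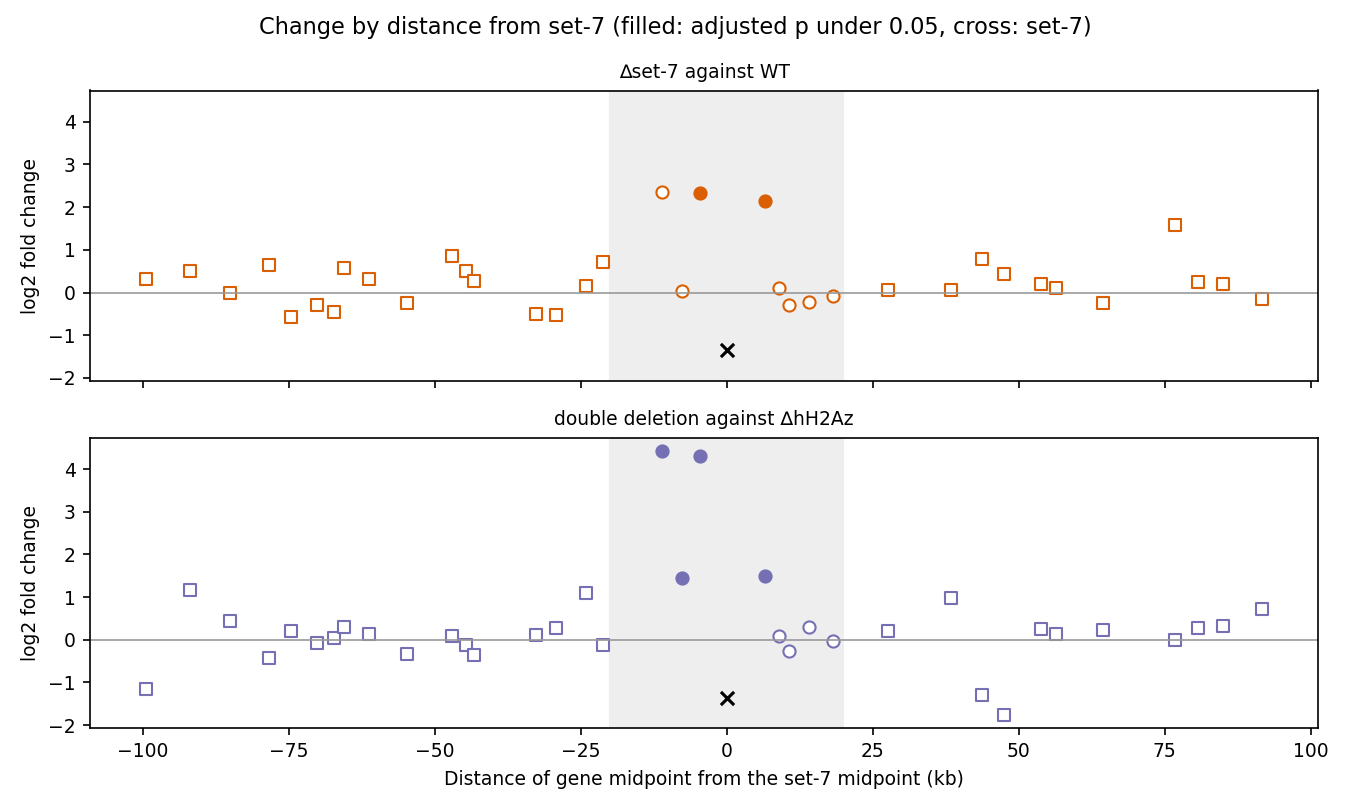
Log2 fold change of every tested gene within 100 kb of set-7 against the distance between midpoints in kb, for ∆set-7 against WT (upper panel) and the double deletion against ∆hH2Az (lower panel); circles on the shaded band are the neighbours, squares the genes further out, filled symbols the called genes and the cross set-7. Filled symbols stand within the band only, from NCU07499 at -11.03 kb to NCU07495 at 6.51 kb in the lower panel. NCU07499 was tested only through its reads in strains lacking set-7, and the next called gene on that side is mus-40 at -7.7 kb. Of all genes tested 1.03% (upper) and 1.45% (lower) were called, so no call among the squares is near those shares.

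The genes around the other deleted locus gave a second view of a deletion and its flanks. Of 11 genes within 20 kb of hH2Az, 9 were tested, and edgeR called 0 of them in each of the 3 comparisons of set-7 loss, also at unadjusted p under 0.05 and with DESeq2 and limma-voom. By adjusted p edgeR called 1.03%, 1.45% and 2.01% of all genes there, so 0 of 9 is near those shares. The share at unadjusted p was not counted, so that count cannot be set against it. hH2Az itself fell in ∆hH2Az against WT (log2 fold change -1.70, SE 0.273, edgeR adjusted p = 0.00101). Reads remained on it, 1377 over the ∆hH2Az libraries and 1622 over the double deletion, beside 3074 over WT. Its row overlaps NCU05345 and NCU05346. In ∆hH2Az against WT 1 of the 9 tested neighbours of hH2Az was higher and 2 were lower, beside 16.2% and 14.9% of all genes. The higher one, NCU05346, overlaps hH2Az and rose (log2 fold change 3.95, SE 0.560, edgeR adjusted p = 0.000269). It averaged 0.217 CPM in WT and 3.41 CPM in ∆hH2Az and passed the filter on low counts through the strains lacking hH2Az alone, so that its place among the tested genes already rests on this difference. The counts do not use strand, so reads of such overlapping genes cannot be told apart by direction. NCU05342 fell by 0.85 and NCU05349 by 0.90 on the log2 scale (edgeR adjusted p = 0.0253 and 0.0373).

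With loss of hH2Az, NCU07497 and NCU07492 fell and NCU07493 rose. In ∆hH2Az against WT, 1 of the 8 tested neighbours was higher and 2 were lower, beside 16.2% and 14.9% of all genes. These are 3 of 8 in a comparison that called 31.1% of all genes, so the share is near that of all genes. Against ∆set-7, the double deletion had 4 of 8 called, mus-40 and NCU07493 higher and NCU07495 and NCU07492 lower, where 29.7% of all genes were called. NCU07497 fell in ∆hH2Az (log2 fold change -1.74, SE 0.353, edgeR adjusted p = 0.00338), with log2(CPM + 0.5) differences of -1.74 in the libraries tagged 920 and -0.50 in those with the other tag. When set-7 was already absent, loss of hH2Az left it at 0.23 (SE 0.308, 95% Wald interval -0.38 to 0.83, edgeR adjusted p = 0.614). By tag this difference was 0.57 and -0.54, and it passed in the libraries tagged 920 alone (0.58, edgeR adjusted p = 0.00927), where 57% of all genes were called. The interaction for NCU07497 was 1.97 (SE 0.469, edgeR adjusted p = 0.245) and did not pass the threshold. It passed without ∆hH2Az replicate 3 (edgeR adjusted p = 0.0474), without replicate 3 of the double deletion (0.0405) and in the libraries tagged 920 alone (3.52e-05). These fits called 1.37%, 1.25% and 25.8% of all genes, where the main fit called 0.179%. By tag it was 2.31 in the libraries tagged 920 and -0.05 in the 4 libraries with the other tag on the log2(CPM + 0.5) scale.

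NCU07495 fell in the double deletion against ∆set-7 (log2 fold change -1.35, SE 0.279, edgeR adjusted p = 0.00446). In ∆hH2Az against WT its log2 fold change was -0.69 (SE 0.280, edgeR adjusted p = 0.0837), with -1.22 in the libraries tagged 920 and 0.36 in those with the other tag. It was called in the libraries tagged 920 alone (edgeR adjusted p = 0.000119, where 55.2% of all genes were called), with upper-quartile scaling (0.0376), without WT replicate 3 (0.0363) and without ∆hH2Az replicate 3 (0.0139). Its interaction was -0.66 (SE 0.396, edgeR adjusted p = 0.885). Against WT the double deletion stood at 0.80 (SE 0.280, edgeR adjusted p = 0.0503), although all 3 of its libraries lay above all 3 of WT. Without WT replicate 1 it passed (0.0473), as it did without ∆hH2Az replicate 1 (0.0481) or replicate 3 (0.0224). It passed as well with DESeq2 (0.0322), limma-voom (0.0426), a mean of at least 5 CPM (0.0455), only the strains compared (0.0491) and the libraries tagged 920 alone (0.0373), where 54.4% of all genes were called.

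NCU07493 had 109, 126 and 133 CPM in WT and 107, 109 and 83.1 CPM in ∆set-7. It had 308, 241 and 349 CPM in ∆hH2Az and 241, 208 and 296 CPM in the double deletion. All libraries lacking hH2Az lay above all libraries keeping it. The share of all genes so separated was not counted, and the 2 comparisons of hH2Az loss called 31.1% and 29.7% of all genes. NCU07493 rose in ∆hH2Az against WT (log2 fold change 1.29, SE 0.201, edgeR adjusted p = 0.000812) and, where set-7 was absent, in the double deletion against ∆set-7 (1.32, SE 0.201, edgeR adjusted p = 0.000821). NCU07494, which overlaps it, had 37.8 to 46.7 CPM in WT, 37.7 to 59.2 CPM in ∆hH2Az, 38.5 to 49.4 CPM in ∆set-7 and 43.9 to 53.7 CPM in the double deletion. The 4 ranges of NCU07494 overlapped, and it was called in no comparison over all libraries.

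NCU07492 moved the other way. It had 17.4, 19.8 and 39.7 CPM in WT, 18.9, 24.7 and 22.3 CPM in ∆set-7, 6.40, 4.95 and 7.77 CPM in ∆hH2Az and 7.58, 10.1 and 5.97 CPM in the double deletion. Libraries lacking hH2Az all lay below those keeping it, and here too the share of all genes so separated was not counted. NCU07492 fell in ∆hH2Az against WT (log2 fold change -2.01, SE 0.327, edgeR adjusted p = 0.00114) and, where set-7 was absent, in the double deletion against ∆set-7 (-1.47, SE 0.327, edgeR adjusted p = 0.00660). NCU07491 had 29.4, 30.7 and 106 CPM in WT, 25.3, 26.7 and 33.8 CPM in ∆hH2Az, 34.7, 48.4 and 74.0 CPM in ∆set-7 and 22.9, 31.1 and 30.8 CPM in the double deletion. Its WT mean rested on replicate 3. Its log2 fold change in ∆hH2Az against WT was -0.96 (SE 0.449, edgeR adjusted p = 0.130), and without WT replicate 3 the change was -0.07. In the double deletion against ∆set-7 it was -0.89 (SE 0.450, edgeR adjusted p = 0.159), which passed without WT replicate 3 (edgeR adjusted p = 0.0311).

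**Figure D4:**
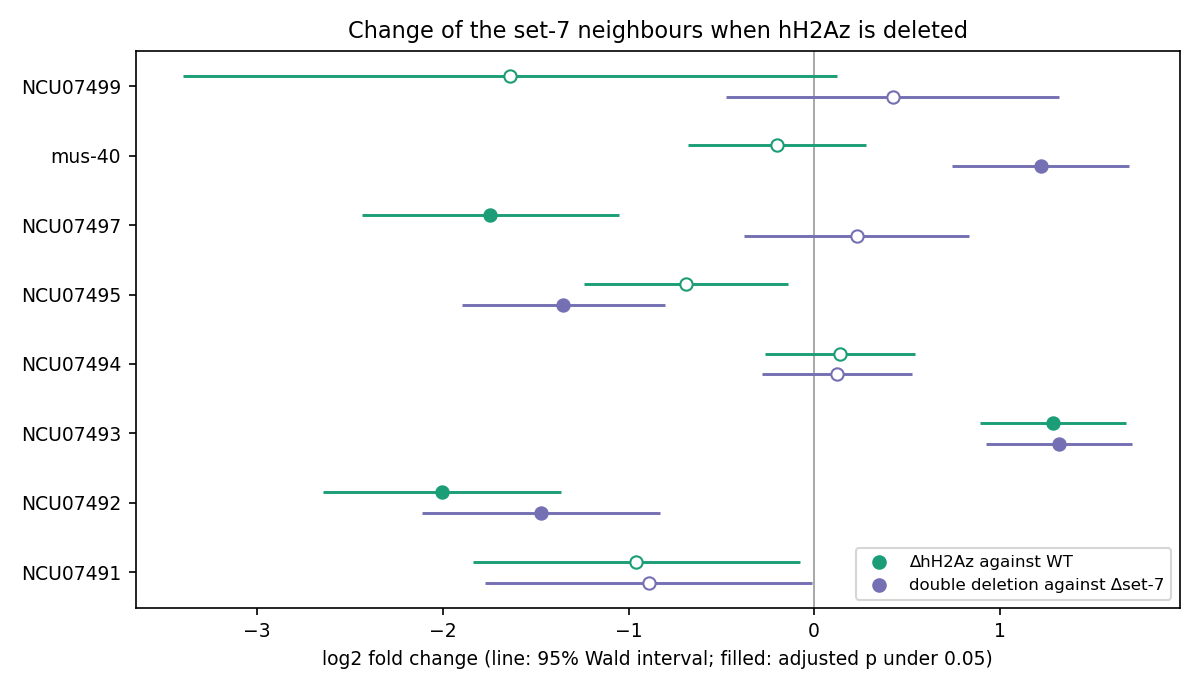
Log2 fold change of the 8 tested neighbours when hH2Az is deleted, with set-7 present (∆hH2Az against WT) and absent (double deletion against ∆set-7); lines are 95% Wald intervals and filled symbols are called genes. NCU07493 lies at 1.29 and 1.32 and NCU07492 at -2.01 and -1.47, while NCU07497 is called only at -1.74 with set-7 present, a difference that did not pass the interaction test.

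Across all genes no neighbour passed the interaction test with edgeR (0 of 8, where 0.179% of all genes were called). DESeq2 called 2 (mus-40 and NCU07497), where it called 0.812% of all genes, and limma-voom called 0, where it called 0.143%. By edgeR 3 neighbours had an unadjusted p under 0.05, NCU07499 among them. Ranked by p over the 8372 genes tested, NCU07499 stood at 468, mus-40 at 46 and NCU07497 at 42. The share of all genes at unadjusted p was not counted. In the double deletion against WT, where both genes are missing, 4 neighbours were higher and 1 was lower. Of all genes 15.3% were higher and 15.2% lower, 30.5% together. DESeq2 and limma-voom each called 6 neighbours where edgeR called 5, and they called 34.9% and 28.9% of all genes. The higher ones were NCU07499 at a log2 fold change of 2.78, NCU07497 at 2.56, mus-40 at 1.25 and NCU07493 at 1.02, and the lower one was NCU07492 at -1.70. NCU07499 passed the filter on low counts only through strains lacking set-7, so it had to differ here too. Without it 3 of the 7 other tested neighbours were higher and 1 was lower. This comparison shares the WT libraries or the double deletion libraries with the others.

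Markers of mycelium and of conidia, the asexual spores, were examined because loss of hH2Az moved them. The summed level of 4 mycelial genes (act, pma-1, hex-1 and Bml) was 5940 to 7726 CPM in WT and 6231 to 7982 CPM in ∆set-7, and 3615 to 4649 CPM in ∆hH2Az and 3067 to 5866 CPM in the double deletion. The summed level of 5 conidiation genes (con-6, con-8, con-10, con-13 and eas) was 51.9 to 116 CPM in WT, 46.8 to 177 CPM in ∆set-7, 137 to 803 CPM in ∆hH2Az and 345 to 1016 CPM in the double deletion. None of the 5 was at 0 in any library, but they did not move as one: con-8 averaged 47.6 CPM in WT and 576 CPM in ∆hH2Az, and eas, a hydrophobin of the spore surface, averaged 41.3 and 0.490 CPM. From WT to ∆hH2Az con-10 went from 2.04 to 1.54 CPM, con-6 from 0.424 to 1.11 and con-13 from 0.181 to 0.918. The conidiation sum in the strains lacking hH2Az was thus mostly con-8, which averaged 578 CPM in the double deletion. Both sums overlapped between the strains compared for set-7 loss and did not overlap between those compared for hH2Az loss. Their part in the changes of the neighbours with hH2Az loss was not tested. Fewer cells of a type and less RNA per cell cannot be told apart in such bulk libraries.

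Genes of the methylation complex and of H2A.Z were examined as a group. Of 6 such genes (set-7, NCU05300, NCU05460, cac-3, hH2Az and NCU09993), 1 was lower and 0 were higher in ∆set-7 against WT. The same counts held in the double deletion against ∆hH2Az, and in each case the lower gene was set-7, itself deleted. Of all genes 0.0119% were lower and 1.02% higher in the first comparison, and 0.323% and 1.12% in the second. NCU05300 and NCU05460 are known as eed and suz12, which encode partners of SET-7 in its complex, and NCU09993 is labelled swr-1, for the remodeller that places H2A.Z. In ∆hH2Az against WT 3 were lower: hH2Az, NCU05300 (log2 fold change -3.13, SE 0.381, edgeR adjusted p = 0.000140) and cac-3, which encodes another subunit (-0.64, SE 0.158, edgeR adjusted p = 0.0104). Of these hH2Az is the deleted gene itself. In that comparison 14.9% of all genes were called lower and 31.1% in either direction. In the double deletion against WT 4 were lower, both deleted genes among them, where 15.2% of all genes were lower. There 1 was higher (NCU05460, 0.94, edgeR adjusted p = 0.0121), where 15.3% of all genes were higher. Against ∆set-7 the double deletion had 2 lower and 0 higher, where 29.7% of all genes were called. In ∆hH2Az, where NCU05300 was lower, NCU07497 was lower too, and none of the neighbours that rose with loss of set-7 was called higher; a link between these levels was not tested.

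The genes whose pattern was most like that of NCU07495 and NCU07497 were sought over the whole table. Likeness was the root mean square difference of log2(CPM + 0.5), centred per gene, over the 12 libraries, among 7842 genes. The genes nearest to NCU07495 were NCU09590 (chromosome VII, 911011 to 911974) at 0.279 and NCU08539 (chromosome III, 4991568 to 4993181) at 0.2996, where NCU07495 itself varied by 1.11 about its mean. Both are expressed far below NCU07495, so that the added 0.5 CPM narrows their changes. NCU09590 had mean levels of 0.355 CPM in WT, 0.0639 in ∆hH2Az, 3.45 in ∆set-7 and 0.755 in the double deletion. The genes nearest to NCU07497 were NCU09524 (chromosome III, 14104 to 16140) at 0.496 and NCU09631 (chromosome II, 15943 to 18173) at 0.533, where NCU07497 varied by 1.57. NCU09631 had mean levels of 1.41 CPM in WT, 1.07 in ∆hH2Az, 8.85 in ∆set-7 and 8.39 in the double deletion. Both genes lie close to the left end of the chromosome coordinates, unlike NCU07497. In all, 51 genes rose in both comparisons of set-7 loss, which is 60% of the 85 that rose in ∆set-7 against WT and 54.3% of the 94 that rose in the double deletion against ∆hH2Az. NCU07497 and NCU07495 are 2 of these 51.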

How the data were processed

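Per the file headers, the authors counted reads per gene over exons of the NC12 annotation with featureCounts 1.6.2, and the deposited table holds whole-number counts, not normalized, with exon length in bases beside them. Per the file headers no option for strand, multiple alignments or multiple overlaps was set, so sense and antisense reads were counted together and reads over 2 genes were dropped. The submitters' processing notes name Trim Galore, BWA 0.7.15 and SAMtools 1.3.1 among their tools, with no role given. Gene names came from the RefSeq table of NC12, which matched all 12 neighbours and 10397 of 10398 genes. Chromatin data (42 samples) were not analysed here.

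The main fit was edgeR 4.0.16 (R 4.3.3), quasi-likelihood F-test with robust dispersion, filterByExpr, TMM, all 12 libraries with a term per strain, 2-sided, Benjamini-Hochberg adjustment over the 8372 genes tested and a threshold of 0.05. Standard errors and intervals are Wald values. RPKM is CPM per kilobase of exon. The script was tested on simulated data. Alternatives were other scalings and filters, DESeq2 1.42.0, limma-voom (limma 3.58.1), replicate or tag as a block, the tag 920 alone, only the strains compared, and each library left out. The members, gene lists and tests were chosen with earlier results of these data known. Genes named are the neighbours, both deleted genes, the nearest gene outside the window on each side, the 2 genes most like NCU07495 and NCU07497 (mean of at least 1 CPM), the called genes near hH2Az, and the listed marker and pathway genes.

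The replicate numbers were checked by correlating same-numbered libraries' deviations from their strain means. For WT and ∆set-7 these were 0.47, 0.21 and 0.25. Replicate 3 carries the other tag in both strains, and libraries of different number were not correlated. The check therefore cannot tell pairing by number from the shared tag, and the labels state no pairing. For the other pairs of strains compared some correlations were under 0.1, so those were taken to share only a number.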

Additional observations from a re-analysis of the deposited data

How the results depend on the processing

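The 28 calls among the neighbours, set-7 and hH2Az kept their sign in all 609 alternative values and stayed called in 577. NCU07497 and NCU07495 in ∆set-7 against WT, and NCU07497 in the double deletion against ∆hH2Az, were called in all 22 alternatives of each. With the replicate number as a block, NCU07495 in the double deletion against ∆hH2Az stood at 1.48 (edgeR adjusted p = 0.0539) and set-7 in ∆set-7 against WT at -1.36 (edgeR adjusted p = 0.0943). set-7 in the double deletion against ∆hH2Az stood at -1.40 with the block (edgeR adjusted p = 0.0640). The block changed no other call. Of 903 alternative values of the 42 pairs of gene and comparison not called, 36 became calls.

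The count of neighbours called in the double deletion against ∆hH2Az was 4, where 1.45% of all genes were called. It fell to 2 in a fit of only those strains, where the share of all genes fell to 0.589%. When 1 library was left out it ranged from 2 to 4. It was 2 without ∆hH2Az replicate 1 (0.733% of all genes) or replicate 2 (0.862%). In the libraries tagged 920 alone it was 5, where 29.5% of all genes were called. With both backgrounds joined it was 3 (2.01% of all genes), and 5 in the libraries tagged 920 alone, where 21.7% of all genes were called. It was 4 with DESeq2 size factors (1.99%), upper-quartile scaling (1.99%) or the DESeq2 test (3.33%). Without ∆set-7 replicate 2 (1.52%) or replicate 3 of the double deletion (2.58%) it was 4 as well. It was 2 with a mean of at least 5 CPM required (1.28%). The interaction count was 0 (0.179% of all genes), but 2 with DESeq2 (0.812%) and 2 in the libraries tagged 920. There 25.8% of all genes were called, so 2 of 8 is near that share. Leaving out 1 library gave 0 to 2. The count was 2 without replicate 3 of the double deletion (1.25% of all genes) and 1 without ∆hH2Az replicate 3 (1.37%). The cause was not tested.

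Signs changed only for pairs not called in the main comparison. NCU07491 in ∆set-7 against WT (-0.09) became 0.0064 with upper-quartile scaling, 0.10 with limma-voom, 0.044 with the replicate block, 0.056 with the tag block and 0.48 in the libraries tagged 920, and ranged from -0.42 to 0.80 when 1 library was left out. In the double deletion against ∆hH2Az (-0.02) it became 0.027 with upper-quartile scaling, 0.0085 with a mean of at least 5 CPM, 0.0064 with the tag block, 0.046 with the tag 920 and 0.0077 with only those strains (1 library left out, -0.10 to 0.12). With both backgrounds joined (-0.05) it became 0.017, 0.040, 0.019, 0.031 and 0.26 with upper-quartile scaling, limma-voom, the replicate block, the tag block and the tag 920 (1 left out, -0.22 to 0.39). Its interaction (0.07) became -0.12 with limma-voom, -0.051 and -0.049 with the replicate and tag blocks and -0.43 with the tag 920 (1 left out, -0.82 to 0.41). With upper-quartile scaling NCU07494 in the double deletion against ∆set-7 became -0.037. mus-40 in ∆set-7 against WT became -0.0066 with limma-voom and -0.12 with the tag 920 (1 left out, -0.19 to 0.25), and NCU07492 there became 0.24 with the tag 920 (1 left out, -0.44 to 0.24). With the tag 920 set-7 in ∆hH2Az against WT became -0.047, and the interactions of NCU07494, NCU07493 and set-7 became 0.064, -0.18 and 0.20; that of NCU07494 was 0.015 with limma-voom. Leaving out 1 library gave ranges of -0.037 to 0.31 for NCU07494 in the double deletion against ∆hH2Az, -0.077 to 0.27 for NCU07494 and -0.0038 to 0.31 for set-7 in ∆hH2Az against WT, -0.070 to 0.27 for NCU07492 with both backgrounds joined, and -0.095 to 0.32 for set-7 in the double deletion against ∆set-7. For the interaction they were -0.15 to 0.20 for NCU07494, -0.11 to 0.16 for NCU07493 and -0.29 to 0.19 for set-7. The cause was not tested.

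Upper-quartile scaling moved the median of all genes to -0.12 in ∆hH2Az against WT and to -0.13 in the double deletion against ∆set-7, on the log2 scale. With 3 libraries per strain from 1 isolate, and counts of 7 or fewer per strain for NCU07499 where set-7 is present, depth limits what can be said of that gene.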
